A study of Mus musculus with 4 samples.

Results

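The regions described here are the m6A peaks of 82 mouse liver genes, chosen by the number of peaks each gene had. A gene was kept when it carried at least 5 peaks in the list from Alkbh5flox/flox liver (FF) and at least 5 in the list from Alkbh5-HKO liver (HKO). These 82 genes were 1.12% of the 7291 genes with a peak in both lists, and 9650 genes had a peak in either. They held 487 of the 14057 FF peaks and 530 of the 14693 HKO peaks. The number of peaks per gene is therefore a criterion and not a result. The overlap between lists, the fold enrichment, the positions and the spacing were not used to choose the genes. Overlap, position and spacing can still depend on the number of peaks per gene, so they are not free of the criterion.

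The series compared m6A in livers of mice with a loxP-flanked Alkbh5 gene (Alkbh5flox/flox, the control) and of Alkbh5-HKO mice, in both cases 9 weeks old and on normal chow. The labels name no Cre line, no sex and no strain, and they do not spell out HKO. For each genotype, liver RNA of 3 mice was pooled, 300 µg in all, cut to about 100 nt and immunoprecipitated with an anti-m6A antibody, and an input library was made beside it. Each genotype thus had 1 pool, 1 IP library and 1 peak list, so no difference between genotypes could be tested against the spread between mice. All comparisons are descriptions of these lists. The 95% Wilson intervals cover counting error only, and peaks of 1 gene share a transcript and are not independent.

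N6-methyladenosine, or m6A, is a methyl mark on adenosines of RNA, set by the METTL3-METTL14 complex mostly within short motifs that contain GGAC or its relatives. Reader proteins of the YTH family bind it, and it is known for its links to RNA decay, splicing and translation. ALKBH5 is a demethylase that removes the mark, and in most tissues m6A is densest in long internal exons and around the stop codon.

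The peaks came as exon blocks on GRCm38.p6, each with the authors' own fold enrichment (IP over input) and q-value. A fold value states how strongly a site was enriched within its own IP, and the number of reads behind it was not given, so the depth is unknown. In both lists a peak could be called only where the transcript was expressed, and fewer cells of a type cannot be told apart from less RNA per cell. Alkbh5 itself, the deleted gene, had 3 FF peaks and 0 HKO peaks; the deleted exons were not given, so this checks the labels only in part. Of 6 markers per cell type, 2 for hepatocytes, 3 for Kupffer cells and macrophages, 4 for endothelial cells, 2 for stellate cells, 1 for cholangiocytes and 0 for leukocytes had a peak in both lists. Among the 82 genes, Apob is a hepatocyte gene, Mpeg1 is best known from macrophages and Mmrn2 from endothelium.

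Sequences were available for transcription starts only. RefSeq starts of the GRCm38.p6 table were found for 61 of the 82 genes, and 19 start windows had a member peak over some of their first 50 transcribed bases. The following 6 are shown because they hold starts under a peak in FF alone and starts under a peak in both lists. In each, 60 upstream bases are in lower case and the first 30 transcribed bases are in capitals.
Znfx1 (chr2:167062986-167063075, minus strand): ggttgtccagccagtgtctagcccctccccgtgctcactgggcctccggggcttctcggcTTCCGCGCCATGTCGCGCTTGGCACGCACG
Clmn (chr12:104865047-104865136, minus strand): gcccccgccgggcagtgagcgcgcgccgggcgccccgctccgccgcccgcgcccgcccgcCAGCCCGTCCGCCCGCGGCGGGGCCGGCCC
Zscan29 (chr2:121171096-121171185, minus strand): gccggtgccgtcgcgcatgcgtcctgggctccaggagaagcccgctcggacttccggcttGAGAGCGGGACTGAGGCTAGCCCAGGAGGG
Golim4 (chr3:75956920-75957009, minus strand): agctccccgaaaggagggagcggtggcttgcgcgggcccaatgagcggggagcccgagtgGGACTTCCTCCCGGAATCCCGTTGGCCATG
Twnk (chr19:45005603-45005692, plus strand): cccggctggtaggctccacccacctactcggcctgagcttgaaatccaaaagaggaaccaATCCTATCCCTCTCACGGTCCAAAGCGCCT
Gm38456 (chr16:24296204-24296293, minus strand): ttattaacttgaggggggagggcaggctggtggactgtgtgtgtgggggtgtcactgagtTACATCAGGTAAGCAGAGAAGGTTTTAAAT

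At the starts of Znfx1 and Clmn, the FF peak covered transcribed base 1. In Clmn that peak also reached into the upstream bases. Neither start had an HKO peak. The FF peak of Zscan29 began at base 38 and likewise had no HKO counterpart. In Golim4 the FF peak began at base 24, and the HKO peak of the same site began beyond the first 50 bases. Both lists had a peak from base 1 in Twnk, with folds of 5.27 in FF and 6.22 in HKO, and in Gm38456, with folds of 10.3 and 60.2. The letters GGAC, searched on the transcript strand only, occur in the capitals of Golim4 and Zscan29. Within the first 50 transcribed bases they were found in 3 of the 19 windows under a peak, in 12 of 80 windows of member genes (15%) and in 6194 of all 32851 windows in the table (18.9%). The start peaks of Znfx1 and Twnk also overlapped a peak that the lists gave to an opposite-strand gene (Zfas1 and Mrpl43). The strand of that signal is uncertain. In Zscan29 a different FF peak, of 181 bp, overlapped one of the opposite-strand gene Adal, and not the 271 bp peak at the start shown.

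By role, assigned once the members were known, the 82 genes were 23 transcription regulators, 11 genes of chromatin and histone modification, 11 of cytoskeleton, junctions and scaffolds, 8 of RNA processing and RNA binding, 7 of metabolism and lipoproteins, 5 of receptors and signalling, 4 of Golgi and membrane traffic, 3 long non-coding RNAs and 10 others. Among broader gene lists, 8 of the 50 chromatin modifiers and remodellers with a peak in both lists were members (16%), against 1.12% of all such genes. RNA processing genes followed with 4 of 40, Golgi genes with 2 of 22, and cytoskeletal and scaffold genes with 3 of 34. DNA-binding transcription factors had 6.45%, transcription coregulators 6.06% and plasma protein and matrix genes 4.55%. Surface receptor and adhesion genes had 3.7%, and insulin, growth factor and nutrient signalling genes 2.27%. A share above 1.12% was thus not particular to chromatin genes. The list of lipid and intermediary metabolism had 0 of 35 and that of ubiquitin ligases and deubiquitinases 0 of 23. These lists are hand-made, were chosen with earlier results of these data known, and are not complete. Acnat1, Gne and Sdr42e1, metabolic enzymes, and Vcpip1, a deubiquitinase, are members outside them. The members' median span was longer, 38166 bp against 22734 bp for other genes with a peak in both lists. The quartiles overlapped, 21642 to 71486 bp in members and 10012 to 51679 bp in the others. Of the members, 79 were protein coding.

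The criterion asked for at least 5 peaks in both lists, so genes with very unlike counts were left out in advance. Left out were 36 genes with 5 or more FF peaks but under 4 HKO peaks. Another 73 had 5 or more HKO peaks but under 4 FF peaks. Similar counts among the members are therefore in part set by the criterion, and the counts are a description. The HKO list had more peaks in 34 genes, the FF list in 18, and 30 had equal numbers, with a difference of at most 1 peak in 65 genes. The HKO excess was 3 or more in 7 genes. It was greatest for Spen, a corepressor of Notch and nuclear receptor targets, with 7 FF and 13 HKO peaks, followed by 5 extra HKO peaks in Srrm2 and in Helz2. An FF excess of 2 was seen in 3 genes, Pcdh1 with 10 and 8, Klf15 with 8 and 6, and Ahdc1 with 7 and 5. Summed exonic length under peaks was 160.1 kb in FF and 187.3 kb in HKO, and it was larger in HKO for 60 of 82 genes (73.2%), against 53.3% of all genes with a peak in both lists. The HKO over FF ratio of the summed length was 1.17 in members and 1.07 over all these genes. Summed length grows with the number of peaks, which chose the members, so it is a description.

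**Figure D1:**
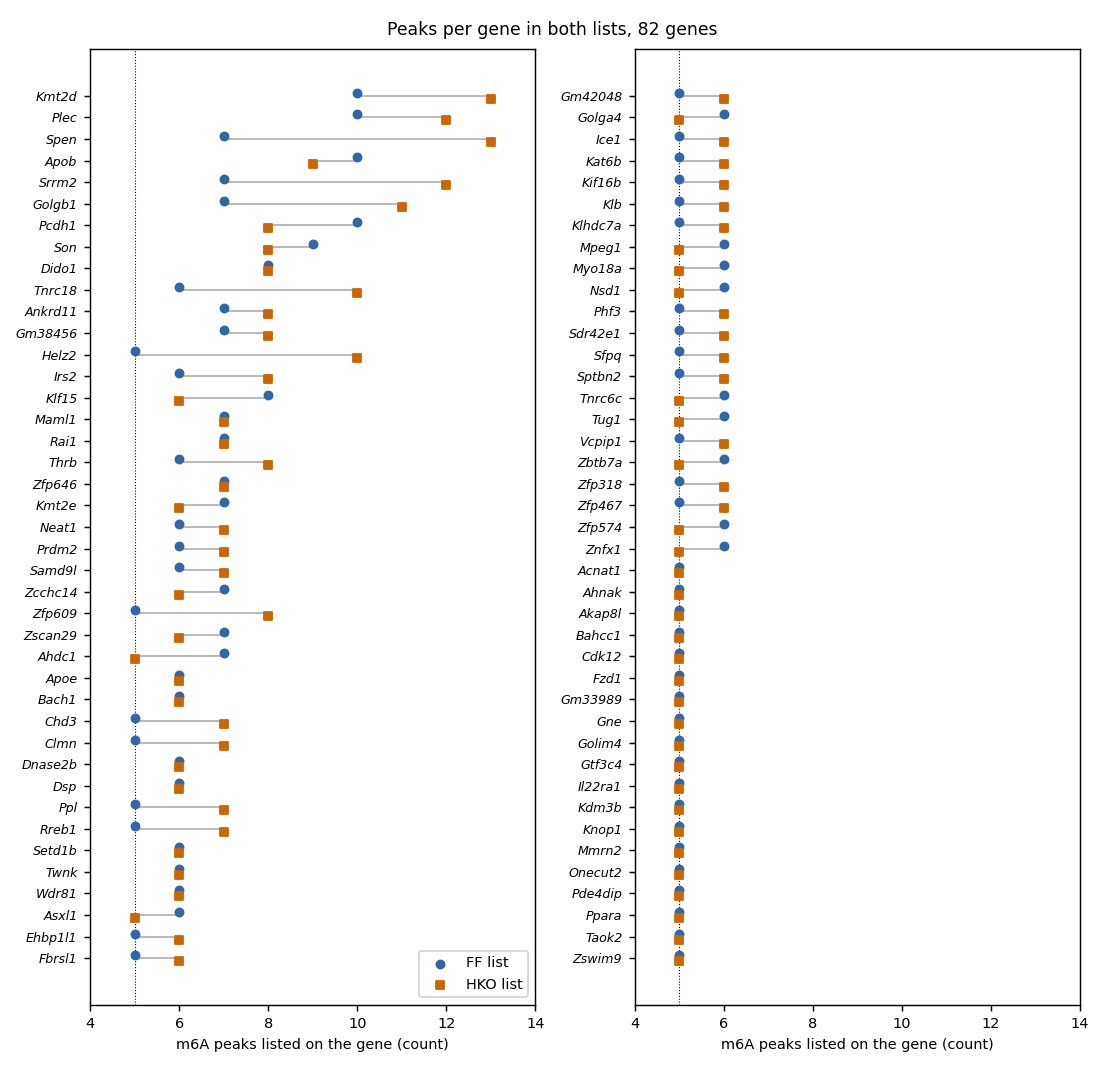
Number of m6A peaks on each of the 82 genes in the FF list (blue circles) and the HKO list (orange squares), ordered by their sum, with a dotted line at the minimum of 5. Kmt2d heads the list with 10 and 13 peaks, and Spen shows the widest gap, 7 against 13.

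At the edge of the criterion there were 19 genes with exactly 5 peaks in both lists, among them Acnat1, Ahnak, Akap8l and Bahcc1. Just outside were 22 genes with 5 FF and 4 HKO peaks, such as Acin1, Aff1 and Arid1a, and 38 with 4 FF and 5 HKO peaks, such as Ank3, Ano6, Arhgap21 and Arid2. The median fold of Ahnak was 13.1 in FF and 11.9 in HKO, and that of Arid1a, just outside, was 18.8 and 20.6. In all, 148 genes had 5 or more FF peaks and 207 had 5 or more HKO peaks.

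Most of the peaks lay at the same sites in both lists. Of the FF peaks of the 82 genes, 418 of 487 (85.8%, interval 82.5 to 88.6) overlapped an HKO peak of the same gene by at least 1 exonic base, against 74.8% of all FF peaks. Of their HKO peaks, 411 of 530 (77.5%, interval 73.8 to 80.9) overlapped an FF peak, against 71.5% of all HKO peaks. A gene without any peak in the other list cannot overlap, so the closer comparison is with other genes that had a peak in both lists. Those stood at 81.8% (interval 81.1 to 82.5) in FF and 79.7% in HKO. In FF the members' interval began where that of the other genes ended, and in HKO the members' interval held the other genes' value. Other genes mostly had fewer peaks to overlap, so this comparison is not free of the criterion either.

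The shared peaks formed 389 groups of overlapping peaks. In 345 of these, 1 FF peak met 1 HKO peak. Another 4 groups held 2 peaks of each list. In the rest, 1 peak of one list overlapped several of the other. Together with 69 peaks specific to FF and 119 specific to HKO, the 82 genes carried 577 distinct sites. In 12 genes every peak of both lists was shared, among them Chd3, Twnk, Wdr81, Klhdc7a and Mpeg1. Sharing was lowest in Clmn, where 3 of 5 FF and 3 of 7 HKO peaks were shared, followed by Ehbp1l1, Zfp318, Spen and Ppl.

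Peaks found in only 1 list were shorter than shared ones. Their median exonic length was 151 bp in both lists, against 300 bp for shared FF peaks and 331 bp for shared HKO peaks. The same difference was seen in other genes. There, list-specific peaks of either list had a median of 151 bp. Shared peaks had medians of 300 bp in FF and 329 bp in HKO, so the shorter length was not particular to the members. Many list-specific peaks of the members also had a fold, p and q that other peaks of the same list repeated exactly. Such repeated values were seen in 52 of 69 FF-specific peaks (75.4%) and 87 of 119 HKO-specific peaks (73.1%), but in 34.4% and 35.3% of the shared ones. In other genes the same shares were 60.3% and 62.3% for list-specific peaks and 29.1% in both lists for shared peaks. The commonest pair in the FF list, a fold of 12.5 with a log10 q of -2.33, stood beside 171 peaks. In HKO it was 14.4 with -2.81, beside 177 peaks. The part of read number in these repeated values was not tested, since read counts were not in the lists.

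Along the gene, most of the members' peaks lay outside fixed windows at the annotated start and end. The last 10% of the gene span still held 29.8% of their FF peaks and 31.7% of their HKO peaks. Over all peaks these shares were 42.9% and 49.2%. Within 500 bp of the annotated gene start lay 24 of 487 FF peaks (4.93%, interval 3.33 to 7.23), against 15.0% of all FF peaks, and 14 of 530 HKO peaks (2.64%, interval 1.58 to 4.38), against 7.38% of all HKO peaks. Within 1000 bp of the gene end lay 49 FF peaks (10.1%, interval 7.69 to 13.1), against 26.5%, and 49 HKO peaks (9.25%, interval 7.06 to 12), against 30.9%. A gene has 1 annotated start and 1 end, so a gene with many peaks tends to a lower share of peaks at either. The share of genes with a peak there has the opposite bias, since members have at least 5 peaks and other genes mostly fewer. By genes, 21 of 82 members (25.6%, interval 17.4 to 36.0) had an FF peak near the start, against 22.4% of the 7209 other genes with a peak in both lists. In HKO it was 12 of 82 (14.6%) against 13.5%. Near the end it was 40 genes (48.8%) against 42.8% in FF and 42 (51.2%) against 47.7% in HKO. The other genes' shares lay within the members' intervals, but with both biases neither measure shows whether placement was alike.

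**Figure D2:**
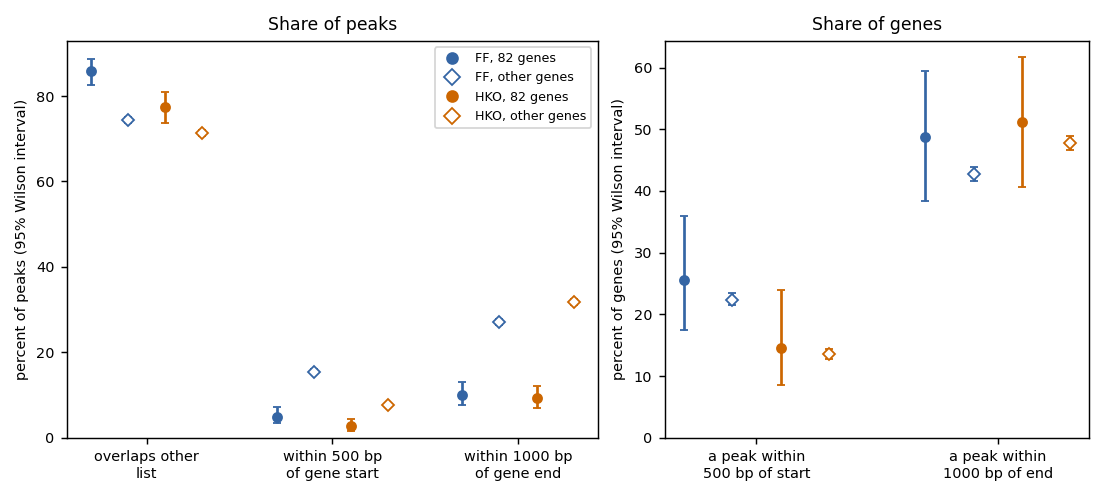
Left, percent of peaks that overlap the other list or lie near the annotated gene start or end; right, percent of genes with a peak near the start or end. Filled circles are the 82 genes, open diamonds other genes (right panel, other genes with a peak in both lists), blue FF and orange HKO, with 95% Wilson intervals; members sit below other genes at the start and end when peaks are counted (4.93% against 15.4% at the FF start) but not when genes are (25.6% against 22.4%).

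The start peaks themselves differed between the lists. Of the 69 FF-specific peaks, 13 (18.8%) lay near a gene start, whereas 2 of the 119 HKO-specific peaks (1.68%) did. In other genes the same shares were 35.0% and 4.82%, lower in HKO as in the members. At the gene end lay 7 FF-specific (10.1%) and 7 HKO-specific peaks (5.88%) of members, against 17.2% and 34.3% in other genes. Shares of peaks fall with peak number, and these other genes include some without a peak in the other list. By genes, 8.54% of members had such an end peak in each list (interval 4.20 to 16.6). Other genes with a peak in both lists had 3.86% in FF and 10.2% in HKO. The members' lower share in HKO was thus clear by peaks but not by genes. The 13 FF-specific start peaks were on 12 genes, which included Spen, Ankrd11, Asxl1, Kdm3b, Pcdh1, Dsp, Ehbp1l1, Zcchc14 and, with 2 peaks, Zscan29. In Spen, Pcdh1 and Znfx1 they had the same fold of 14.9 and the same log10 q of -2.96. In all, 11 of the 13 had values repeated elsewhere in the FF list. When only peaks with q of 1e-05 or less were kept, 8 of 298 FF peaks (2.68%) and 8 of 340 HKO peaks (2.35%) remained near a start. The shares of all peaks at this threshold were not computed, so whether members differ from the whole lists there is not shown.

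Neighbouring peaks lay close together. The median gap to the next peak of the gene was 777 bp of genome in FF and 538 bp in HKO, against 1643 bp and 1076 bp in other genes with 2 to 4 peaks. Gaps under 1000 bp made up 54.8% of the members' FF gaps and 64.3% of their HKO gaps, against 43.1% and 48.6%. A gene with more peaks has shorter gaps for a given length, so part of this follows from the criterion. Peaks that spanned more than 1 exon block were 9.65% of FF and 8.49% of HKO peaks in members, against 17.7% and 14.1% in other genes, so the members' peaks more often lay within a single exon.

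**Figure D3:**
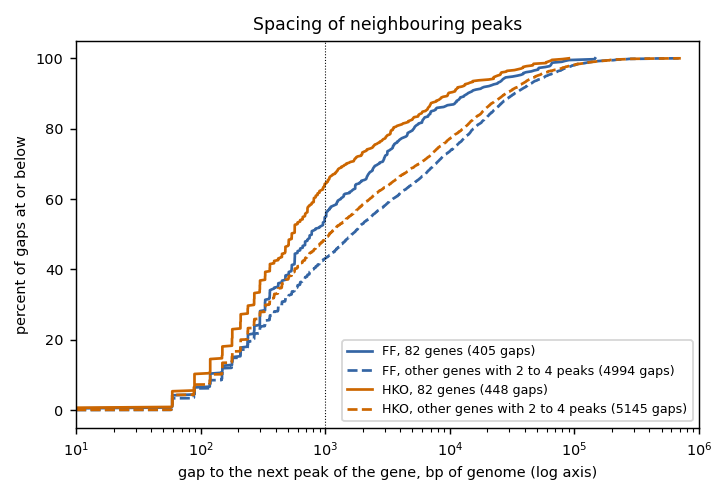
Cumulative percent of gaps between neighbouring peaks of a gene (log axis, bp of genome) for the 82 genes (solid) and for other genes with 2 to 4 peaks in the list (dashed), FF in blue and HKO in orange; overlapping peaks are drawn at the left edge. At 1000 bp the members' curves stand at 54.8% in FF and 64.3% in HKO, above 43.1% and 48.6%.

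Fold enrichment at the shared sites was compared over the 345 sites where 1 FF peak met 1 HKO peak. The fold was at least 2 times higher in HKO at 106 sites (30.7%, interval 26.1 to 35.8), against 28.0% of all 9408 such pairs in the lists. It was 0.5 times or less at 38 sites (11%, interval 8.13 to 14.8), against 14.8%. The fold was higher in HKO, by any amount, at 220 sites (63.8%, interval 58.6 to 68.7), against 59.8% of all pairs. The median HKO over FF ratio was 1.28 in members and 1.22 in other genes. Folds of separate IPs have no common scale, so a ratio above 1 gives no direction of change in methylation, and a ratio is read here only against that of all pairs. The members' shares were near the background in all 3 counts.

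**Figure D4:**
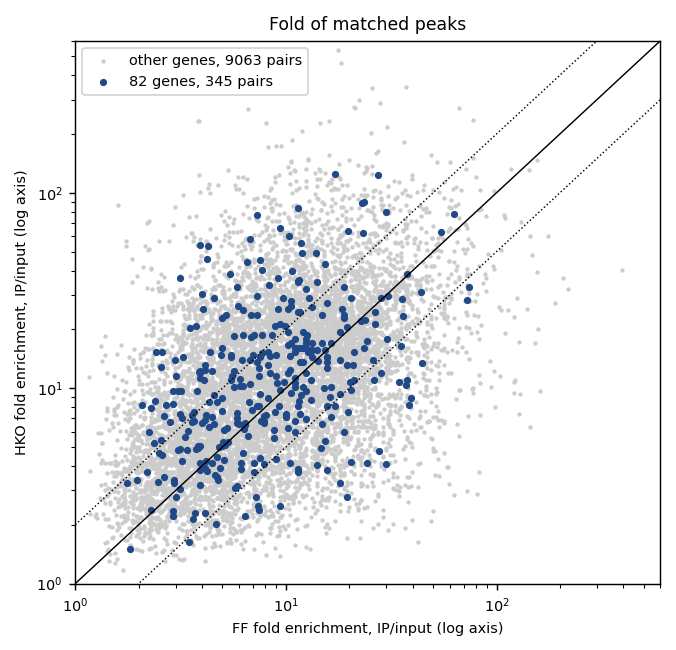
Fold enrichment of matched peaks in FF (x) and HKO (y), both on log axes, for 345 pairs of the 82 genes (blue) and 9063 pairs of other genes (grey), with lines at equality (solid) and at a ratio of 2 and 0.5 (dotted). The members lie within the cloud of the other pairs, and 63.8% of them are above the line of equality, against 59.6% of the other pairs.

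Across the pairs, log2 folds of FF and HKO correlated with a Pearson r of 0.44 in members and 0.47 in other genes; pairs share libraries and genes, and this is a description. Within a gene the strongest peak was a median 5.24 times the weakest in FF and 7.16 times in HKO. The strongest peak of a gene was the same site in both lists for 25 of the 82 genes. By the smallest q it was the same site for 63. In these genes the site ranked first was thus shared more often by q than by fold. The same counts were not made for other genes, so neither is shown to be particular to the members. Of 58 members with 4 or more matched pairs, 7 had every pair higher in HKO, against 13.2% of all 121 genes with that many pairs. These were Acnat1, Apob, Apoe, Bach1, Cdk12, Nsd1 and Thrb. None of the 58 lacked a pair higher in HKO, against 1.65% of the 121 genes. The members' shares, 12.1% and 0%, were near these backgrounds.

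Chromatin genes gave 67 FF and 75 HKO peaks, and 29 of their 46 matched pairs (63.0%) were higher in HKO, against 59.8% of all pairs. Kmt2d, a histone H3 lysine methyltransferase of enhancers, had the most peaks. Its 10 FF peaks had folds of 23.7, 6.79, 16.4, 16.4, 9.01, 7.05, 10.7, 11.4, 6.08 and 9.97 in order along the gene. All but 1 of these sites were also HKO peaks, and HKO had 4 further peaks, of folds 19.5, 11.5, 11 and 3.14. At 29.1 and 30.2 kb from the start, the shared sites had FF folds of 10.7 and 11.4 and HKO folds of 39.9 and 35.4, the strongest in the HKO list of this gene. Kmt2e, of the same enzyme family by name, had the lowest ratio of any member pair, 29.8 in FF and 4.07 in HKO at its start. Peaks of Kmt2e overlapped peaks of the opposite-strand gene 5031425E22Rik, so those at its start are uncertain as to gene. Chd3, a remodelling ATPase of the NuRD complex, had all of its 5 FF and 7 HKO peaks shared, with median folds of 5.83 and 3.40. Setd1b, another H3 lysine methyltransferase, had 6 peaks in each list with median folds of 10.4 and 11.4. Nsd1, which methylates histone H3 at lysine 36, had 4 of 4 pairs higher in HKO, with 9.87 in FF and 20.8 in HKO, and 23.1 and 89.1, at its last 2 sites. Tnrc18 had 6 FF and 10 HKO peaks, yet 2 of 5 matched pairs were higher in HKO and its median ratio was 0.71. More peaks thus did not go with higher folds at the shared sites of this gene.

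Transcription regulators gave 139 FF and 150 HKO peaks, and 64 of 97 pairs (66%) were higher in HKO, against 59.8% of all pairs. In Spen the 7 FF folds were 14.9, 30.2, 11.7, 6.85, 6.66, 4.7 and 33.1 from start to end. The HKO list lacked the first site and added 7 peaks, 1 at 16.4 kb with a fold of 15.3 and 6 between 61.8 and 68.4 kb with folds of 7.64, 25.5, 17.8, 11.9, 14.4 and 9.33. The last 6 lay among FF peaks of the same stretch, at 60.5, 63.2, 64.4, 66.9 and 70.2 kb. The other FF peak without a counterpart, at 64.4 kb, lay close to an HKO-specific peak at 64.6 kb without sharing a base with it.

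Thrb encodes a thyroid hormone receptor that is prominent in liver. All of its peaks lay from 374.4 to 379.6 kb of a 380873 bp gene. Its 6 FF folds were 62.7, 8.22, 4.28, 2.57, 3.13 and 7.31, and the HKO folds at the same sites were 78.1, 15.3, 53.5, 15.3, 36.5 and 13.6. Every site was higher in HKO, with a median ratio of 3.91, and HKO had 2 more peaks, of folds 5.94 and 13.6. The first site was the strongest of the gene in both lists.

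Rreb1, a zinc finger factor of the RAS pathway, had the highest median ratio of the genes with 4 or more pairs, 4.35. Its FF folds were 4.01, 9.40, 11.9, 19.7 and 3.98, and HKO had 66.2 where FF had 9.40 but 7.54 where FF had 19.7. The sites of this gene hence differed in opposite directions. Ppara, the nuclear receptor of fatty acid oxidation, had FF folds of 3.76, 19.8, 5.27, 5.14 and 2.54, and the 3 matched sites had HKO folds of 4.88, 5.15 and 5.43. Both its FF peaks at 66.4 and 67.1 kb were covered by 1 HKO peak of fold 17.0. Klf15, a factor of fasting metabolism, had 4 FF-specific peaks of folds 10.6, 4.56, 3.92 and 2.27, and 3 of them lay within the first 4.3 kb, where HKO had no peak. Onecut2, a hepatobiliary homeobox factor, had FF folds of 4.96, 15.7, 74.0 and 2.92 at its shared sites and HKO folds of 22.9, 27.2, 33.1 and 2.35. Its peak at 54 kb was the strongest of the gene in both lists. In Dido1 a single HKO peak of 2490 bp and fold 104 covered 3 FF peaks of folds 16.6, 16.6 and 20.2. Equal numbers of 8 peaks in this gene therefore did not mean equal sites. Zbtb7a, a repressor of the POZ zinc finger class, was lower in HKO at 3 of 4 matched sites, with a median ratio of 0.60. In Gtf3c4, a subunit of a general factor for RNA polymerase III, the strongest FF peak of 37.6 was matched by 38.2 in HKO. In Cdk12, the kinase of the polymerase II tail, all 5 pairs were higher in HKO, with 5.87 in FF and 33.1 in HKO at the widest.

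Genes of RNA processing gave 50 FF and 57 HKO peaks, and 23 of 36 pairs (63.9%) were higher in HKO, against 59.8% of all pairs. Srrm2, a large spliceosome and nuclear speckle protein, had FF folds of 27.6, 14.9, 6.61, 2.30, 1.77, 2.38 and 3.61. Its 6 HKO-specific peaks all lay between 26.0 and 30.9 kb, with folds of 6.22, 2.49, 5.42, 2.28, 2.05 and 2.12. The strongest FF site, at 12.8 kb, had a fold of 4.79 in HKO. Son, a second speckle protein, had 9 FF and 8 HKO peaks, and 5 of its 7 matched sites were higher in HKO. Its strongest FF peak of 44.1 stood at 13.4 in HKO, while the site at 7.2 kb stood at 6.27 in FF and 25 in HKO. Helz2, a helicase and nuclear receptor coactivator, had 5 FF peaks, all of them shared, and 5 further HKO peaks of folds 8.06, 5.43, 13.6, 9.90 and 11.2. Of these, 4 lay within the first 6.0 kb, where FF had no peak. Tnrc6c, a partner of Argonaute in silencing by microRNAs, had FF folds of 21.9, 72.8 and 57.2 at 3 peaks that 1 HKO peak of fold 66.2 covered. Sfpq, a paraspeckle protein, had all peaks shared, but 3 of its 5 FF and 5 of its 6 HKO peaks overlapped peaks of the opposite-strand gene Zmym1 and are uncertain as to gene.

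**Figure D5:**
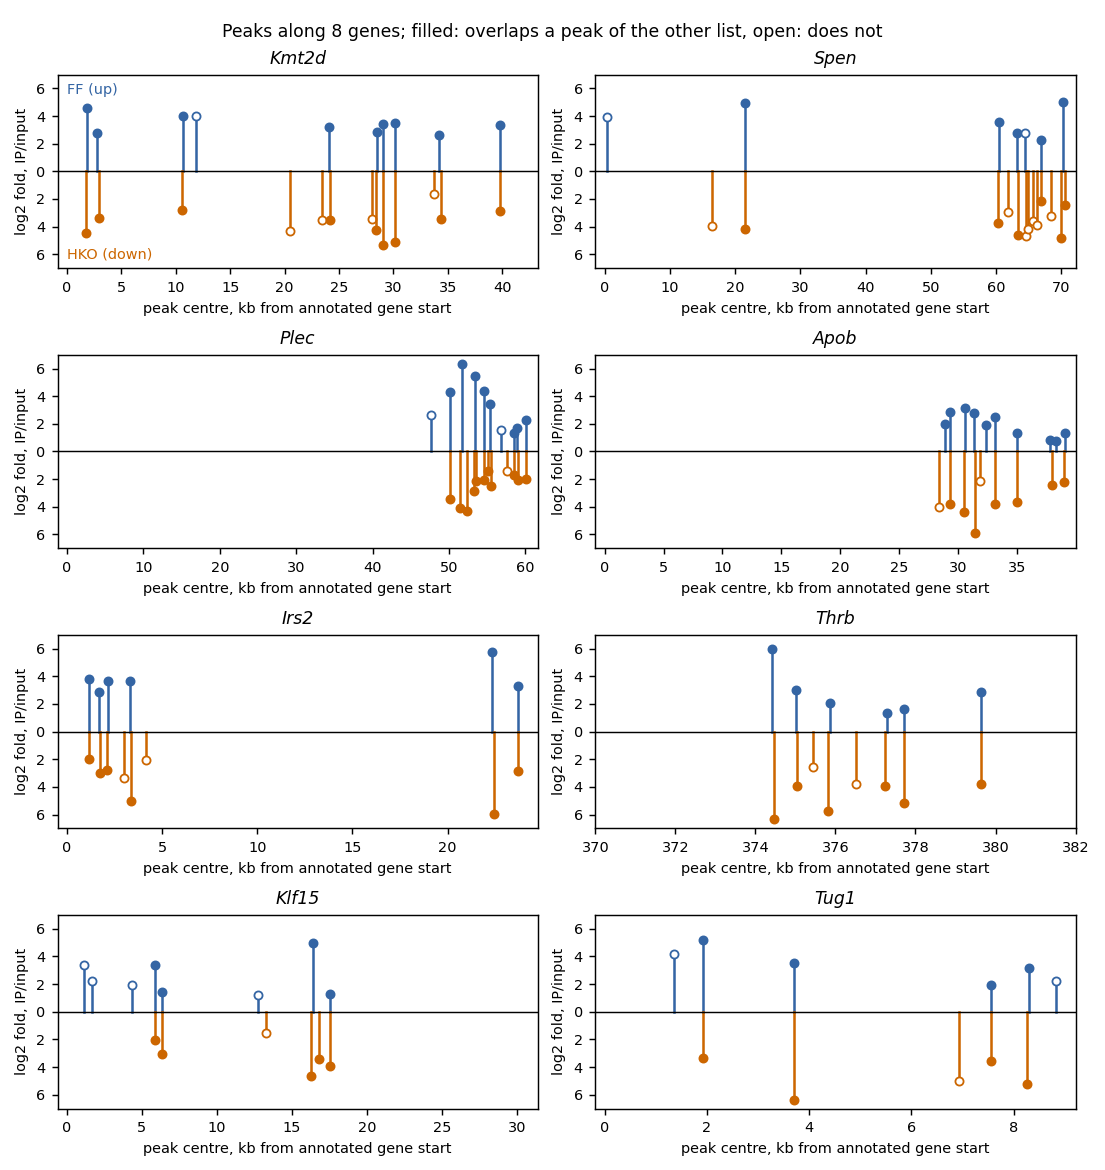
Peak centres along 8 member genes, in kb from the annotated gene start, with log2 fold enrichment drawn upward for FF (blue) and downward for HKO (orange); filled points overlap a peak of the other list and open points do not, and the Thrb panel shows the end of the gene only. In Spen 6 of the 7 open HKO points lie between 61.8 and 68.4 kb and 1 at 16.4 kb, and in Thrb all 6 FF sites have an HKO peak.

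The 3 long non-coding RNAs gave 19 FF and 20 HKO peaks. Tug1 had FF folds of 18.0, 37.2, 11.4, 3.86, 9.13 and 4.70. At the 4 shared sites HKO had 10.4, 83.2, 12.1 and 36.5 against FF folds of 37.2, 11.4, 3.86 and 9.13. Gm38456 had 7 FF peaks with a median fold of 7 and 8 HKO peaks with a median of 11.45. Its first and last sites were the most enriched in both lists, with 10.3 and 11.9 in FF and 60.2 and 49.2 in HKO. Neat1, the scaffold RNA of paraspeckles, was a member only because the same site was listed more than once: near its start, FF had entries of folds 7.60 and 7.45 and HKO had 13.8 and 13.7. When overlapping entries of a gene were joined, Neat1 fell under the minimum and 81 genes were left.

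Cytoskeletal, junction and scaffold genes gave 67 FF and 72 HKO peaks, and 24 of 46 pairs (52.2%) were higher in HKO against 59.8% of all pairs, with a median ratio of 1.03. Plec encodes plectin, a linker of intermediate filaments. Its FF folds were 6.27, 20.2, 79.9, 45, 20.4, 10.9, 2.98, 2.48, 3.21 and 4.89, all from 47.6 to 60.1 kb. The HKO folds over the same stretch ran from 2.60 to 19.9, so the FF folds of 79.9, 45, 20.2 and 20.4 were above every HKO fold of the gene. Mmrn2, an extracellular protein of endothelium, had all 5 sites shared and 4 of them lower in HKO, with FF folds of 11, 21.1, 25.8, 72.8 and 4.58 and HKO folds of 5.94, 15.3, 14, 28.3 and 28.9. Ahnak, a giant scaffold protein, was lower in HKO at 3 of 4 shared sites. Pcdh1, a protocadherin, had 10 FF and 8 HKO peaks, and the excess was 1 FF-specific peak at the start and 1 pair of FF peaks that merged into a single HKO peak. Myo18a, an unconventional myosin, had median folds of 4.05 and 7.08. Clmn, which encodes calmin, had 4 HKO-specific peaks of folds 2.55, 2.24, 2.80 and 5.43.

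Golgi genes gave 23 FF and 27 HKO peaks. Golgb1, which encodes giantin, had 7 FF and 11 HKO peaks. All of its FF peaks were shared, and the 5 HKO-specific peaks had folds of 11.9, 9.05, 3.61, 3.09 and 2.77. At the shared sites it was higher in HKO at 2 of 5 pairs. Golga4, another golgin, had FF folds of 10.6, 7.22, 4.13 and 19.9 at shared peaks. Its strongest site, at 53.2 kb, was shared with HKO at a fold of 18.5.

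Receptor and signalling genes gave 26 FF and 29 HKO peaks, and 13 of 24 pairs (54.2%) were higher in HKO, against 59.8% of all pairs. Irs2, the main insulin receptor substrate of liver next to Irs1, had FF folds of 14.1, 7.44, 12.4, 12.5, 54.8 and 10. HKO had 4.03, 8.06, 6.93, 32.2, 62.8 and 7.35 at these sites and 2 more peaks, of folds 10.2 and 4.24. The order of the weaker sites differed, but the strongest site, at 22.3 kb, was the same. Klb, the FGF21 coreceptor beta-klotho, had a site with an FF fold of 11.8 and an HKO fold of 55.6. Fzd1, a Wnt receptor, had the lowest median ratio of the genes with 4 or more pairs, 0.41, with FF folds of 17.2, 12.5, 38.4 and 15.3 at shared sites and HKO folds of 8.06, 17.8, 8.2 and 5.37. The site at 1.4 kb was the only one of the 4 that was higher in HKO.

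Genes of metabolism and lipoproteins gave 43 peaks in each list. Of their 32 pairs, 25 (78.1%) were higher in HKO against 59.8% of all pairs, with a median ratio of 1.74. These pairs came from 7 genes, and every pair of Acnat1, Apob and Apoe was higher in HKO. Pairs of 1 gene are not independent, and the role was assigned once the members were known, so the share is a description. Apob encodes the structural protein of very low density lipoproteins. Its 10 FF peaks, all shared, had folds of 4.03, 7.36, 8.89, 6.73, 3.73, 5.72, 2.56, 1.77, 1.65 and 2.58, and the 9 HKO peaks had 16.1, 13.7, 20.9, 58.3, 4.34, 14, 12.8, 5.34 and 4.53. The HKO peaks covered 7437 exonic bp against 4712 in FF, so the lower count in HKO went with a larger area. All 4 matched pairs were higher in HKO, with a median ratio of 3.68. Apoe, an apolipoprotein of remnant particles, had 4 of 4 pairs higher in HKO, with a median ratio of 2.09. Acnat1, a peroxisomal acyltransferase, had FF folds of 1.96, 10.2, 4.57, 19.5 and 27.4 and HKO folds of 3.39, 25.5, 6.58, 20.5 and 123. Acnat1 has a close paralog, Acnat2, and how reads were divided between them is uncertain. Gne, the first enzyme of sialic acid synthesis, had 4 pairs with a median ratio of 4.33, from 0.54 to 10.6. Twnk, the mitochondrial DNA helicase, had all 6 sites shared and 3 of 6 higher in HKO.

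The remaining 10 genes gave 53 FF and 57 HKO peaks, and 29 of 42 pairs (69.0%) were higher in HKO, against 59.8% of all pairs. Gm42048 held the highest ratio of any member pair, 3.92 in FF and 54.3 in HKO. Vcpip1, a deubiquitinase with 1 peak in each list that overlapped a peak of the opposite-strand gene 1700034P13Rik, held the highest fold in the HKO list of the members, 125, at a site with 17.2 in FF. Samd9l, an interferon-induced gene, had 5 of 6 pairs higher in HKO, with 23.5 in FF and 89.9 in HKO at its strongest site. Mpeg1, which encodes the macrophage pore protein perforin-2, had all of its 6 FF and 5 HKO peaks shared. Wdr81, an endosomal protein, had 6 sites in each list, all shared, with median folds of 10.25 and 10.5.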

How the data were processed

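Liver RNA of 2 genotypes was analysed as 4 libraries (IP and input), of which the authors deposited 2 peak lists, 1 per genotype. Per the submitters' processing notes, fastp 0.19.11, BWA 0.7.12 and HOMER 4.9.1 were used with GRCm38.p6, and per the series' design text peaks were called with exomePeak 2.16.0 against the input at a q-value threshold of 0.05. The lists hold the authors' fold enrichment (a ratio of IP over input), p-values and the deposited scores log10 p and log10 q. The labels disagree on the antibody and the library kit, and no source states use of strand; antisense overlaps are uncertain. Read totals were not used here.

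Peaks were read as exon blocks, and a shared peak overlapped a peak of the same gene in the other list by at least 1 base. Matched pairs are one-to-one overlaps. Gene spans, starts and ends come from the RefSeq table of GRCm38.p6, and the first base of the span in transcript direction is the gene start; sequences are from RefSeq. The overlap code was tested on simulated data. Python 3.11.15, pandas 2.3.3 and scipy 1.17.1 were used. No test between genotypes was made, since each had 1 pool.

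The members and gene lists were chosen with earlier results of these data known, and roles were assigned after the members were known. Genes were named by rule: the 10 with the most peaks, the 5 widest differences in count each way, up to 4 members of each gene list, the 5 highest and lowest median ratios over at least 4 pairs, the 5 strongest shared peaks, the 5 least and 5 most shared genes, and genes at the threshold; others were chosen after their values were seen. Alternatives were stricter q and fold thresholds, lists of equal length, minimums of 4 and 6 peaks, other overlaps, windows and ratios, and joined peaks. Those on overlapping entries and on genes overlapping another gene's peak were added after seeing the data.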

Additional observations from a re-analysis of the deposited data

How the results depend on the processing

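Of 59 alternatives over 9 results, 48 left the value within its interval or within 1.5 times the count. The members were kept fixed for shares under other q, fold and list length settings. With q of 1e-05 or less in both lists, 18 genes kept 5 peaks in each, the FF start share was 2.68%, the FF end share 13.4%, and 7.52% of pairs had a ratio of 0.5 or less. With a minimum of 4 peaks the HKO end share was 12.4%. With windows of 200 bp and 500 bp, start shares were 2.46% in FF and 1.13% in HKO and end shares 4.72% and 4.91%. At a ratio of 1.5, 42.9% of pairs were at or past it and 19.1% at or under its inverse, against 40.3% and 22.7% of all pairs. Narrower windows and a lower ratio change these shares by construction. Under the stricter q and the minimum of 4, the shares depend on which peaks and genes were left. Why those shares moved was not tested. Joining peaks under 100 bp apart left 66 genes. Without the 8 genes that overlap another gene's peak, chosen after seeing the data, shared percentages were 85.4% and 76.6%. No paired analysis was possible because each genotype had 1 pool and no result came from a test. Depth is unknown, and a site without a peak is not shown to be unmethylated.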
